A study of Rattus norvegicus with 2 samples.

Results

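Ttll5 encodes a tubulin glutamylase of the tubulin tyrosine ligase-like (TTLL) family, and in rat spinal cord it was among the host genes with most circular RNAs (circRNAs), rings of RNA in which the end of a later exon has been spliced to the beginning of an earlier one. Its members are the 21 circRNAs, of 11599 in the table, whose gene field holds the name Ttll5, and this name stands alone in each of them. The gene was chosen by its number of listed circRNAs, with their read counts known, so the number and the levels are given as a description. Spinal cord came from SD rats 21 days after surgery. In the bone cancer pain group (BCP), live Walker256 cells, a rat mammary carcinoma line grown as ascites, had been injected into the tibial marrow. In the sham group, the same operation was done with Walker256 cells boiled for 20 min. The labels describe 3 animals per group but hold 1 library per group. The sources used here do not say whether the animals were pooled, nor their age or sex. Both samples carry the injected line as their source and spinal cord cells as their tissue, and the tissue was followed.

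Microtubules are modified after assembly, and glutamylation is the addition of glutamate side chains to the tails of tubulin. TTLL enzymes add the chains and cytosolic carboxypeptidases remove them, and the chains alter the binding of motors, microtubule-associated proteins and severing enzymes. The modification is abundant in neurons and in cilia. TTLL5 starts such chains, and it also glutamylates RPGR, a protein of the photoreceptor cilium. Under the name STAMP the same protein was described as a partner of nuclear receptor coactivators and the glucocorticoid receptor. A circRNA of a gene is counted by the reads across its back-splice junction, so its level says nothing of the enzyme or of the linear mRNA.

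The sham library held 113033 back-splice reads and the BCP library 78836, so sham was 1.43 times as deep. Levels are the back-splice reads of a circRNA per 1000000 back-splice reads of its library (CPM). All intervals are 95%, exact binomial (Clopper-Pearson) for shares and levels and conditional exact for ratios, and they cover counting error only. Without molecular identifiers, separate reads need not be separate molecules. With 1 library per group no difference has a replicate check, and each ratio compares these libraries and not the conditions. The smallest count above 0 in the table was 2, so a 0 in the table may stand for fewer than 2 reads. In bulk tissue, fewer cells of a type and less RNA per cell cannot be told apart.

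The Ttll5 circRNAs lay on chromosome 6 (build rn6) between 109723648 and 109879607, a stretch of 155960 bp. They were built from 11 start positions and 10 end positions, and every one of the 21 shared a start or an end with another. Both of its sites were shared in 13 of them. Of 78 pairs of these positions with the start below the end, 21 were listed. Host genes within 5 Mb of Ttll5 in the table keep their side of it in the RefSeq annotation of the GRCr8 assembly (16 of 16 below and 8 of 8 above), where Ttll5 is on the plus strand. Read that way, a start is the upstream edge of a circRNA and an end its downstream edge. Exon annotation was not used here.

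Starts and ends of different circRNAs often flanked the same short stretch. There were 7 stretches of at most 500 bp bounded below by a start and above by an end, with lengths of 83 to 490 bp. The stretch from 109742370 to 109742471 (102 bp) was the start of 1 circRNA and the end of another. The one from 109764831 to 109765320 (490 bp) was the start of 4 and the end of 2, and was itself listed as a circRNA. The others measured 158 bp (from 109778697), 185 bp (from 109800721), 155 bp (from 109817920), 196 bp (from 109850518) and 83 bp (from 109875753). Each of these stretches thus began some of the listed circRNAs and ended others.

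**Figure D1:**
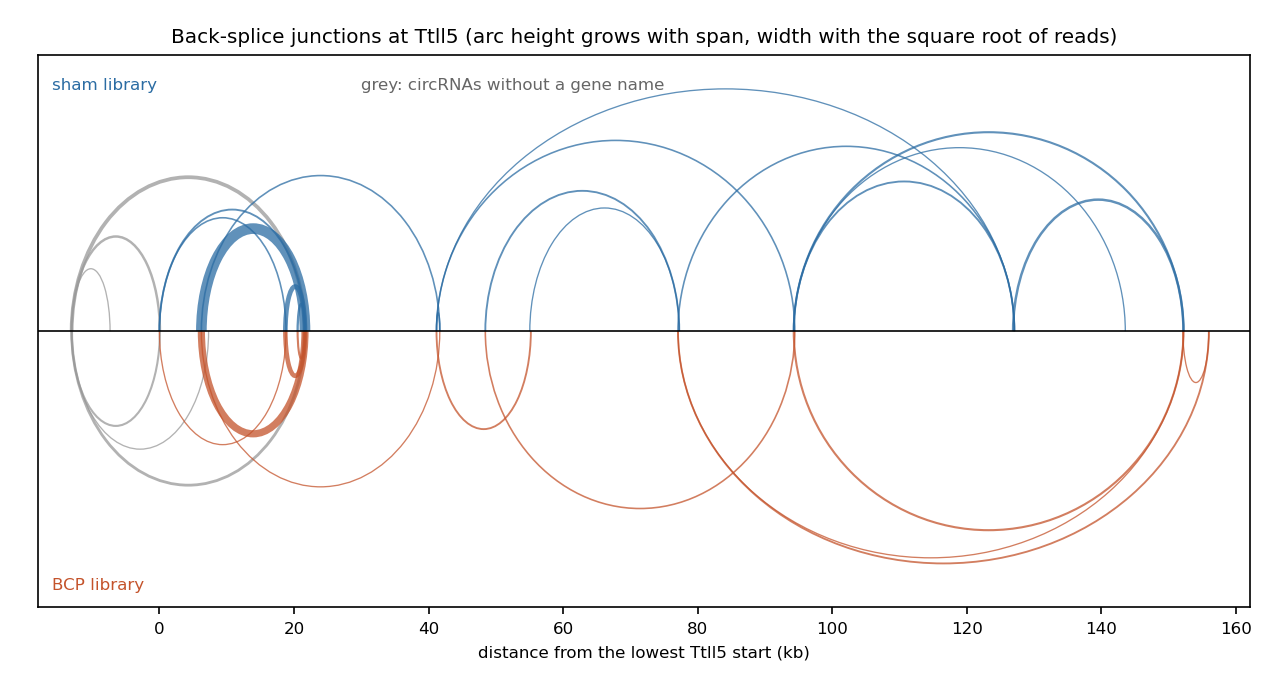
Each arc joins the start and the end of a circRNA, placed by distance in kb from the lowest Ttll5 start, with sham above the line in blue and BCP below it in orange; height grows with span and width with the square root of reads, and grey arcs are circRNAs at this place without a gene name. The thickest arcs of both libraries end at the same position, and arcs of 2 to 10 reads in all cover the part of the locus above that position.

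One circRNA held most of the reads. It ran from 109729890 to 109745287 (15398 bp) and had 129 reads in sham and 59 in BCP, which is 1141 CPM (952.9 to 1356) and 748 CPM (569.8 to 965.3). It took 62.9% of the Ttll5 reads in sham (55.9 to 69.55) and 53.15% in BCP (43.45 to 62.7), and these intervals overlap. Next came a circRNA with the same end and a start 12480 bp further in, at 109742370 (2918 bp). It had 25 and 23 reads, 221 CPM in sham (143 to 326.5) and 292 CPM in BCP (184.9 to 437.7). The point estimate of the most abundant form was higher in sham and that of the next one higher in BCP, with overlapping intervals for each level. The interval of the ratio of BCP over sham lay below 1 for the abundant form (0.656, 0.4735 to 0.899). For the next one it included 1 (1.32, 0.715 to 2.42).

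The end at 109745287 was the one most reads used. Besides those 2 starts it was joined to 109744191 (1097 bp, 6 and 5 reads) and to 109723648 (21640 bp, 4 sham reads against 0 in BCP). These 4 circRNAs took 80.0% of Ttll5 reads in sham (73.9 to 85.25) and 78.4% in BCP (69.6 to 85.6). The share of this end was thus nearly equal in both libraries. The most used start, 109729890, took 64.4% (57.4 to 70.9) and 54.95% (45.2 to 64.4). A single other circRNA used that start, and it ended at 109765320 with 3 and 2 reads.

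Within the reads of the shared end, the start at 109729890 gave 78.7% in sham (71.6 to 84.7) and 67.8% in BCP (56.9 to 77.4). The start at 109742370 gave 15.2% (10.1 to 21.7) and 26.4% (17.55 to 37.0). Set against each other, the inner form had 0.194 reads per read of the abundant form in sham and 0.390 in BCP. The odds ratio of BCP over sham was 2.005 (conditional exact interval 0.9985 to 4.02), which includes 1. This pair was singled out after its values were seen. Among 387 ends of the table with at least 2 circRNAs of 10 or more reads listed in both libraries, 8.53% had a pair of leading circRNAs with an odds ratio of at least 2-fold either way and an interval that excluded 1.

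Close to the lower edge lay 4 circRNAs whose gene field holds 9 names of small RNA families and not Ttll5. All started at 109710612, which is 13036 bp below the first Ttll5 start. One of them ended at 109745287, the shared end of the Ttll5 circRNAs, and had 16 reads in sham and 9 in BCP (142 and 114 CPM). Another ended at 109723730, which closes an 83 bp stretch with the first Ttll5 start, and had 7 and 5 reads. The remaining ones ended at 109730964 (2 BCP reads against 0 in sham) and at 109716322 (2 sham reads against 0 in BCP). By the rule they are not members and are left out of the sums. With the one that shares the end, the sum for Ttll5 would be 221 and 120 reads, and the abundant form would take 58.4% of it in sham and 49.2% in BCP.

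Beyond the shared end lay 15 circRNAs with few reads each, 35 in sham and 20 in BCP in all. They took 17.1% (12.2 to 22.9) and 18.0% (11.4 to 26.45) of the Ttll5 reads. Their spans ran from 490 to 85883 bp with a median of 45989 bp, against 1097 to 21640 bp for the 5 that ended at or below 109745287. The single one with reads in both libraries ran from 109817920 to 109875835 (57916 bp) and had 5 reads in each, 44.2 CPM in sham and 63.4 CPM in BCP. Start 109817920 and end 109875835 were also the most used ones of this distal part in sham, with 11 and 12 reads. In BCP the end at 109875835 had 7 reads and the start at 109817920 had 5, below the 6 of the start at 109800721.

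Of the distal circRNAs, 9 were listed in sham alone. The one with most reads ran from 109850518 to 109875835 with 7 reads (61.9 CPM). The start at 109817920 joined to the end at 109850713 had 4 reads and to the end at 109867192 had 2. The start at 109772086 joined to 109800905 had 4 reads, and the start at 109778697 joined to the same end had 2. Those from 109764831 had 3 reads (end 109765320), 3 reads (end 109818074) and 2 reads (end 109850713), and the one from 109800721 to 109850713 had 3. All 9 reads at the end 109850713 and all 6 at the end 109800905 were thus from sham.

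In BCP alone, 5 circRNAs were listed, all of them distal. Those from 109764831 to 109778854 and from 109800721 to 109879607 had 4 reads each (50.7 CPM). The one from 109772086 to 109818074 had 3 reads, and those from 109800721 to 109875835 and from 109875753 to 109879607 had 2 each. All 6 reads at the uppermost end, 109879607, were from BCP, and they too came from circRNAs of 2 to 4 reads each. A circRNA from 109723648 to 109742471, at the lower side of the locus, had 3 and 2 reads.

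**Figure D2:**
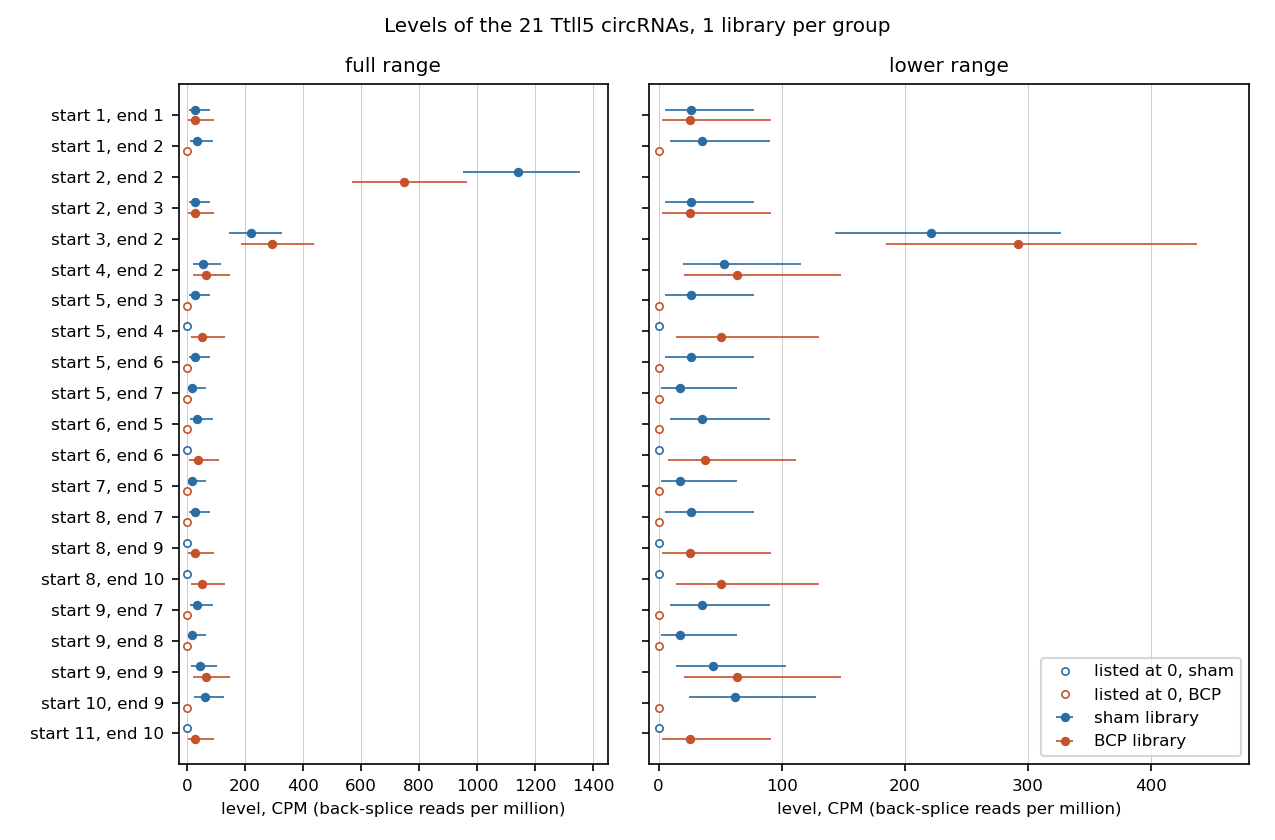
Points give the level (CPM) of each of the 21 Ttll5 circRNAs in sham (blue) and BCP (orange), on the full range at left and on its lower part at right, with 95% exact binomial intervals; open points are circRNAs listed at 0, which have no interval. The circRNA of start 2 and end 2 stands far above the rest with 1141 and 748 CPM, and 15 of the 21 are listed at 0 in one library.

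Listing in both libraries followed the number of reads. Of the 21 circRNAs, 6 were listed in both libraries, 10 in sham alone and 5 in BCP alone. None of the 14 with 2 to 4 reads in all was in both, against 2.34% over the table. Since the smallest count above 0 was 2, those with 2 or 3 reads could not be in both. Those with 4 could be so only as 2 and 2, so the share of this class was largely fixed by that floor. Of the 3 with 5 to 9 reads, 2 were in both (51.4% over the table), and of the 4 with at least 10 reads, 4 were (92.6%). Had sham been as shallow as BCP, 13.1 of its 16 Ttll5 circRNAs would be expected to keep at least 2 reads, and BCP listed 11.

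Summed over all 21, Ttll5 had 205 reads in sham and 111 in BCP, or 1814 CPM (1574 to 2079) and 1408 CPM (1158 to 1695). The sum was 1.29-fold lower in BCP (ratio 0.776, 0.611 to 0.983). An interval below 1 was found for 11.4% of the 2143 host genes with at least 10 reads. Most of the difference was in reads of the abundant circRNA, which was 1.525-fold lower in BCP (ratio 0.656, 0.4735 to 0.899). The other 20 together had 76 and 52 reads, 672 and 660 CPM, a ratio of 0.981 (0.676 to 1.41). For the 6 circRNAs with reads in both libraries the ratio was 0.805 (0.620 to 1.04), so the side of 1 on which the whole interval lies also rests on circRNAs listed in 1 library.

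A rule of size was applied to every circRNA with at least 10 reads over both libraries: a ratio of at least 2-fold (pseudocount 0.5 reads) and an interval that excluded 1. Only 4 of the 21 Ttll5 circRNAs had enough reads, and 0 were higher and 0 lower in BCP. Of all 3502 circRNAs tested, 15.2% met the rule, 7.82% as higher and 7.34% as lower. The abundant circRNA had an interval below 1, as 9.17% of all those tested did. Ratios for the others were 1.32 (0.715 to 2.42) for the start at 109742370, 1.195 (0.2885 to 4.70) for that at 109744191 and 1.43 (0.330 to 6.23) for the distal one of 5 and 5 reads. The median log2 ratio of these 4 was 0.34, opposite in sign to the log2 ratio of the sum, -0.36, and the median over all circRNAs tested was 0.02. The distal circRNA of 7 sham reads fell short of the read minimum. With a minimum of 5 reads it met the rule as lower, as 8.93% of circRNAs did, and also with no minimum (4.81%). With a ratio of 1.5-fold the abundant circRNA was lower, as 8.68% were.

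**Figure D3:**
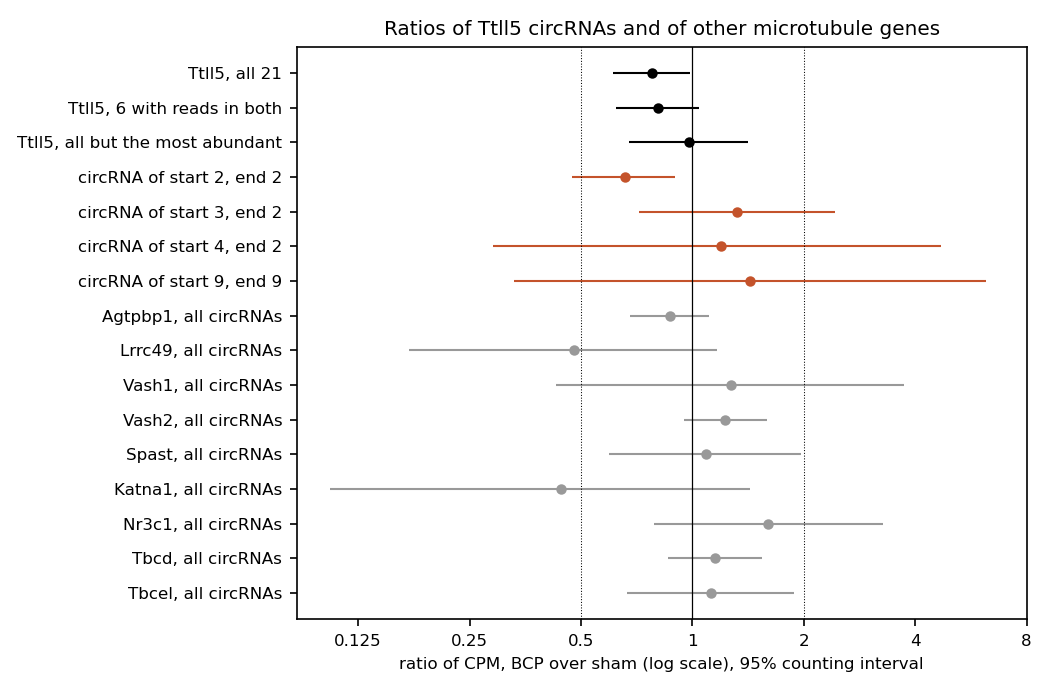
Points give the ratio of CPM in BCP over sham on a log scale with 95% conditional exact intervals. Black marks Ttll5 sums and orange the 4 Ttll5 circRNAs with at least 10 reads. Grey marks sums of other genes of the lists with reads in both libraries, microtubule genes and the glucocorticoid receptor gene Nr3c1. Dotted lines mark 2-fold either way. The Ttll5 sum (0.776) and its abundant circRNA (0.656) have intervals below 1, and the sum without that circRNA (0.981) does not.

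Among 3865 host genes Ttll5 ranked 58 by reads and 4 by number of circRNAs. The 39 other hosts whose reads were within 1.2-fold of its 316 had 1 to 19 circRNAs each, with a median of 5. Across the 123 hosts with at least 10 circRNAs, the leading circRNA held a median of 31.6% of the reads of both libraries together, and in Ttll5 it held 59.5%, with 10 hosts above it. The most used end held a median of 46.3%, against 79.4% in Ttll5, with 13 hosts above it. Counting starts and ends, Ttll5 used 1 distinct site per circRNA, close to the median of 1.1. 

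**Figure D4:**
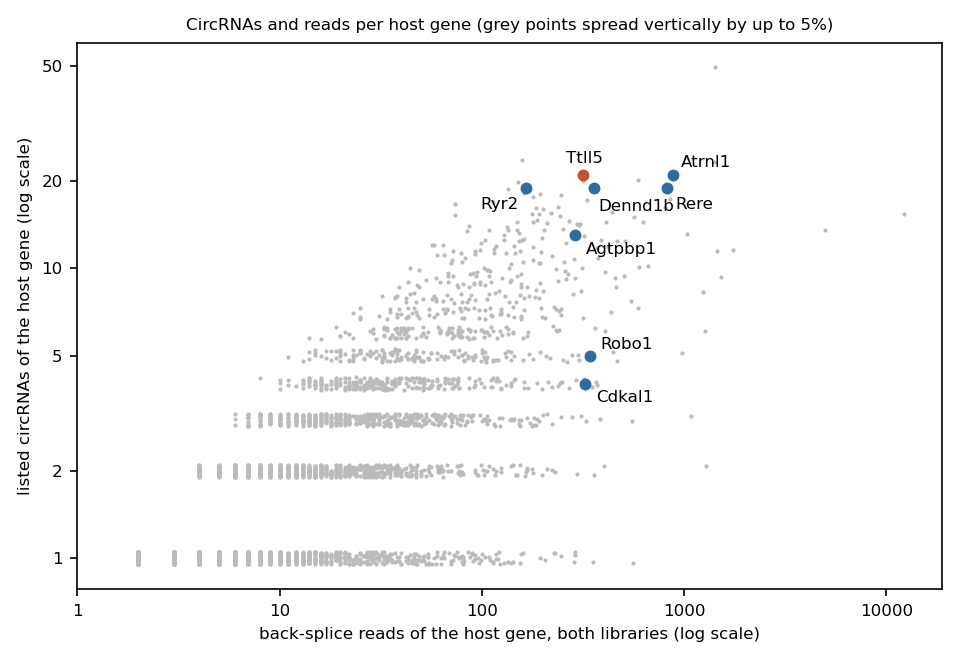
Each grey point is a host gene, placed by its back-splice reads over both libraries and by its number of listed circRNAs, both on log scales. Ttll5 (orange) has 316 reads and 21 circRNAs, and blue points are hosts near to it in level (Cdkal1, Robo1, Agtpbp1) or in number of circRNAs (Atrnl1, Rere, Dennd1b, Ryr2).

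Among the hosts nearest in number of circRNAs were Atrnl1 (21), Rere, Dennd1b and Ryr2 (19 each). Their leading circRNA took 25.6%, 22.3%, 37.7% and 33.3% of their sham reads in that order, against 62.9% in Ttll5. In BCP the shares were 23.8%, 21.2%, 45.45% and 26.2%, against 53.15%. The share was thus smaller than in Ttll5 in each of these 4 hosts and in both libraries, though in BCP the interval of Dennd1b (37.1 to 54.0) overlaps that of Ttll5 (43.45 to 62.7). The hosts nearest in level, by the distance of log2 CPM over these 2 libraries, were Cdkal1 (distance 0.089), the axon guidance receptor gene Robo1 (0.185) and Agtpbp1 (0.189). With 2 points per gene this likeness says only that the levels are close.

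Agtpbp1 encodes a cytosolic carboxypeptidase that removes glutamates from the chains of tubulin. Its 13 circRNAs had 180 reads in sham and 109 in BCP, 1592 and 1383 CPM, a ratio of 0.868 (0.678 to 1.11). As in Ttll5, a single end held most of them: the end at 5571375 on chromosome 17, joined to 6 starts, took 79.4% of its reads in sham (72.8 to 85.1) and 89.0% in BCP (81.6 to 94.2). The leading circRNA, from 5555491, had 101 and 51 reads, and the next one at that end, from 5563519, had 22 and 19. Their odds ratio was 1.705 (0.7946 to 3.64), also with an interval that includes 1. None of its 5 circRNAs with at least 10 reads met the size rule, which 15.2% of all circRNAs tested did. With 5 tested, nothing is read from this count.

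Of the 13 other family members on the list (Ttl, Ttll1 to Ttll4 and Ttll6 to Ttll13), 2 hosted a circRNA. Ttll7, a glutamylase with a preference for beta-tubulin, had 3 circRNAs, all in sham, with 25 reads. Its main one (chromosome 2, 252807923 to 252811538) had 18 reads and met the size rule as lower in BCP. Ttll11, which lengthens glutamate chains, had 1 circRNA, with 3 BCP reads. Ttll5 thus held 205 and 111 reads, and these relatives together 25 and 3.

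Among 5 genes of the polyglutamylase complex and its adaptors, Lrrc49 and Tpgs2, which encode subunits of that complex, hosted circRNAs. Lrrc49 had 21 and 7 reads, a ratio of 0.478 (0.172 to 1.17), and its main circRNA, with 15 sham reads against 0 in BCP, met the size rule as lower. Tpgs2 had 3 sham reads. Agtpbp1 was the only host among the 6 deglutamylase genes. Over these 3 lists 7 circRNAs were tested, with 0 higher and 2 lower and a median log2 ratio of -0.46, against 7.82% higher, 7.34% lower and a median of 0.02 over all 3502 circRNAs tested. With so few tested, nothing is read from these counts. Both of the lower ones had no BCP reads, as had 174 of those 3502.

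The lists of detyrosination, severing, tubulin folding and partners or substrates of TTLL5 held 30 circRNAs. Vash2, a tubulin detyrosinase gene, had 1 circRNA of 753 bp with 132 and 113 reads (ratio 1.23, 0.946 to 1.59), and its paralog Vash1 had 1 with 9 and 8 reads. The severing enzyme genes Spast (29 and 22 reads) and Katna1 (13 and 4 reads) hosted 8 circRNAs, 2 of them tested. Of these 0 met the rule, which 15.2% of all circRNAs tested did. Of the tubulin folding genes, Tbcd had 107 and 86 reads (1.15, 0.857 to 1.545) and Tbcel 37 and 29. A circRNA of Tbcel from 46716191 to 46730691 on chromosome 8 was higher (14 and 22 reads, 2.25-fold, 1.10 to 4.76). Another, with 11 sham reads against 0, was lower. These were 2 of the 6 circRNAs of tubulin folding genes that were tested. The glucocorticoid receptor gene Nr3c1 had 17 and 19 reads, and its main circRNA was higher with 4 and 11 reads (3.94-fold). Ncoa1, a nuclear receptor coactivator gene, had 6 sham reads and none in BCP. None of the 20 tubulin symbols of RefSeq was in the gene field of the table. No circRNA was hosted by an acetylation gene of the list or by Rpgr.

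Markers of spinal cord cell types host few circRNAs, so they check the tissue weakly. All 5 neuron markers hosted circRNAs, 6 in all, with 19 reads in sham and 31 in BCP (168 and 393 CPM). Of 5 oligodendrocyte markers, 3 did, with 11 and 45 reads (97.3 and 571 CPM), of which 27 BCP reads came from a circRNA of Mbp listed at 0 in sham. Astrocyte markers had 5 and 3 reads from Slc1a2 alone, microglia markers 2 and 0 from Ptprc alone, and markers of ciliated ependymal cells 2 and 5. Gfap, Aqp4, Cx3cr1 and Foxj1 hosted none. The neuron and oligodendrocyte sums were higher in BCP while the Ttll5 sum was lower, and their part in that difference was not tested.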

How the data were processed

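Per the labels' protocols, RNA freed of ribosomal RNA was treated with RNase R (16 units, 15 min) to remove linear molecules before dUTP-based library preparation. The authors deposited 1 table with back-splice read counts, whole numbers of 0 or at least 2, for 1 sham and 1 BCP library. Its columns headed TPM hold CPM: each deposited value above the floor is the count over its column total to within 0.001, and 0 is written as 0.001. Per the submitters' processing notes, tools were CASAVA 1.8 and BWA, with rn6 as the build. For the circRNA caller, tool and settings were not given in the sources used here.

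Counts were scaled to column totals. The gene and the lists were chosen with earlier results of these data known. Small RNA family names and names on several chromosomes or spread over more than 3000000 bp were dropped, which left 10004 circRNAs with 1 host gene. Named circRNAs are all those of Ttll5; other genes are the 3 hosts nearest in log2 CPM, the 5 nearest in number of circRNAs, and every hosting gene of 9 fixed lists with up to 2 circRNAs each. Of the 5, 1 is not reported here. Circles at the lower edge, the leading pair of an end and the sites of Agtpbp1 were singled out after their values were seen. All 48 symbols of 8 lists matched RefSeq (GRCr8), and tubulins were taken from it by symbol pattern; it was used for names, gene order and strand. Intervals came from scipy 1.17.1. Scaling by DESeq2 1.42.0 (median-of-ratios) or edgeR 4.0.16 (TMM), other read minimums (5, 20), ratios (1.5) and pseudocounts (0.1, 1) were tried. The size rule was tried on simulated counts with counting error only and planted changes of 3-fold and 5-fold. The interval of shares was tried on simulated binomial counts. Smaller changes, such as those of the Ttll5 sum, were not simulated. No sequence is printed, since the rn6 genome was not used here.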

Additional observations from a re-analysis of the deposited data

How the results depend on the processing

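All log2 ratios shifted by -0.10 under median-of-ratios scaling and by -0.12 under TMM. The Ttll5 sum kept a ratio under 1 in all 9 alternatives run, from 0.716 (TMM) to 0.981 (without the most abundant circRNA). Its interval included 1 without that circRNA, with circRNAs listed in both libraries alone (0.805, 0.620 to 1.04) and with those of at least 10 reads alone (0.799, 0.613 to 1.04). Some of the 9 could hardly differ from the main run. The rows naming Ttll5 alone were the same 21 circRNAs, and pseudocounts of 0.1 and 1 reads on the sums gave 0.777 and 0.7795. The count of Ttll5 circRNAs lower in BCP went from 0 to 1 with a minimum of 5 reads or no minimum (the one of 7 sham reads) and to 1 with a ratio of 1.5-fold (the abundant one). No setting run gave a higher one. With at least 5 reads, 7 of the 21 circRNAs were left. The leading circRNA took 75.4% of sham reads among circRNAs listed in both libraries. Without it, the start at 109729890 fell to 3.95% in sham and 3.85% in BCP, and the end at 109745287 to 46.05% and 53.85%, since that circRNA uses both. The median log2 ratio of the glutamylation lists was -0.56 with median-of-ratios scaling, -0.58 with TMM and -0.56 with at least 5 reads. Addition of the unnamed circRNA that shares the end was chosen after seeing the data. No paired analysis was possible because there is 1 library per group. The Ttll5 circRNAs with 11 and 10 reads over both libraries had ratio intervals of 0.2885 to 4.70 and 0.330 to 6.23, so 2-fold differences either way lie within them.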
